A study of Mus musculus with 6 samples.

Results

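The MS4A genes encode small membrane proteins, and 8 of them that are known mainly from blood and immune cells were followed through MC38 tumors from mice given the prodrug GB2. They are Ms4a4a, Ms4a4b, Ms4a4c, Ms4a4d, Ms4a6b, Ms4a6c, Ms4a6d and Ms4a7. They were taken by gene name from a table of 33965 genes, where each name has 1 row, and 8 of 8 had enough counts to be tested among 19602 genes. The tumors were grown subcutaneously in C57BL/6 mice from MC38, an established line of mouse colon carcinoma cells. The comparison is of 3 tumors of mice treated with PBS, the untreated controls, and 3 tumors of mice treated with GB2, in which the STING agonist MSA-2 is joined by a disulfide bond to artesunate, an inhibitor of TREM2. The labels give no dose, time or age for the sequenced tumors, and they number the tumors without saying that each came from another mouse, so the p values measure the spread between these tumors. Bulk RNA-seq was measured, so each value is an average over cancer cells, immune cells and stroma of a tumor. The total counts ran from 64764405 to 69878156 in PBS tumors and from 81210553 to 83690056 in GB2 tumors, and about 4 counts stand for 1 read pair. Levels are given as CPM, the counts scaled to library size and TMM factor, and as FPKM where genes are compared with each other.

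MS4A proteins span the membrane with 4 helices and keep both ends inside the cell. Many of them associate with receptors and shape their signalling. MS4A1 is CD20 of B cells, and MS4A2 is the beta chain of the high-affinity IgE receptor of mast cells. MS4A4A and MS4A7 are known from macrophages, and MS4A4A associates with dectin-1, the beta-glucan receptor encoded by Clec7a. Human MS4A4A also bears on the amount of soluble TREM2, the receptor that the artesunate part of GB2 is meant to inhibit. The mouse has several close copies of the Ms4a4 and Ms4a6 genes, and among them Ms4a4b is known mainly from T cells.

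All 8 genes lie on chromosome 19 within 283.8 kb, from 11298403 to 11582213 in the positions of the deposited table. In that order along the chromosome, Ms4a7 is followed by Ms4a4a, Ms4a4c, Ms4a4b, Ms4a6c, Ms4a6b, Ms4a4d and Ms4a6d. Ms4a7 and Ms4a6d are on the minus strand and the other 6 on the plus strand. The submitters' processing notes name mm10, but each of the 8 genes starts 22636 bases earlier in the table than in the GRCm38 annotation, so the 2 sets of positions are kept apart here.

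Sequences are shown for the closest copies because reads from an identical stretch can be assigned to either gene. The coding sequences of Ms4a4b and Ms4a4c were 91.8% identical, the highest value among all pairs of the 8 genes. Their longest identical run was 127 bases, coding bases 321 to 447 of both genes counted from the A of the start codon, on the transcript strand (GENCODE M21, GRCm38):
Ms4a4b and Ms4a4c, coding bases 321 to 447: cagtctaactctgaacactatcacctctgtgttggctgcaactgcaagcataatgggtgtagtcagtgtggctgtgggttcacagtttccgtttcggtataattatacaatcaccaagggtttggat

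Ms4a4d was 85.7% identical to Ms4a4b and 87.9% to Ms4a4c. Among Ms4a6b, Ms4a6c and Ms4a6d the identity was 79.1% to 85.3%, with identical runs of 44 to 81 bases. The other 22 pairs were 57.9% to 68.3% identical, and their runs were no longer than 16 bases. The counts of Ms4a4b, Ms4a4c and Ms4a4d, and of the 3 Ms4a6 genes, are therefore uncertain as to which copy a read came from, and a sum over each of these sets of 3 copies is given after the single genes. Ms4a6c is also overlapped on the other strand by BE692007, which held 0 to 163 counts per tumor, and the sources used here do not state whether the counting used strand.

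The promoters were compared because most of the genes were higher in the same tumors, as described further on. RefSeq promoter windows of 300 bases (250 before to 50 after the start site, GRCm38.p6) were found for 7 of the 8 genes, with 2 entries for Ms4a7 and none for Ms4a6d. The windows of Ms4a6b and Ms4a6c shared a run of 48 bases, at -118 to -71 from the Ms4a6b start and at -49 to -2 from the Ms4a6c start. In GENCODE an exon of Ms4a6b begins at -106, so only the Ms4a6c copy is shown. The windows of Ms4a4b and Ms4a4c shared a run of 20 bases. The bases before the start site are on the plus strand up to the nearest annotated exon, with the longest run identical to the neighbouring copy in capitals (other bases are shared as well, and the Ms4a4b and Ms4a4c windows were 81.9% identical):
Ms4a6c, chr19:11469218-11469365: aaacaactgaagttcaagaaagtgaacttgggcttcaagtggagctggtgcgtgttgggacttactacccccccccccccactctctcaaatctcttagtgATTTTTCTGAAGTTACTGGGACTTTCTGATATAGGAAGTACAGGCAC
Ms4a4b, chr19:11443408-11443552: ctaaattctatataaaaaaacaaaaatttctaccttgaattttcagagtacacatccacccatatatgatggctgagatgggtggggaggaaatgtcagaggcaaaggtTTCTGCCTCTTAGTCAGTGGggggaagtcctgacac
Ms4a4c, chr19:11407511-11407660: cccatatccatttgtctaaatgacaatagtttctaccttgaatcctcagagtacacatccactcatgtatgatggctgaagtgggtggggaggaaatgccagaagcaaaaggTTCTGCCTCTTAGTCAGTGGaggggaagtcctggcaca

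PU.1, a transcription factor of myeloid cells, binds sites around GAGGAA. Searched on both strands, GAGGAA was present in 3 of the 8 windows, at -64 to -59 in Ms4a4b, at -61 to -56 in Ms4a4c and at 44 to 49 in Ms4a7, against 28.3% of all 32851 promoter windows. The longer GAGGAAGT, which contains it, was in 0 of the 8 windows and in 3.2% of all. TTCNNNGAA, the form of site that STAT factors bind, was in 0 of the 8 windows and in 8.3% of all. A match is a description of letters and not of binding.

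GB2 tumors held more RNA of the Ms4a6 genes and Ms4a7 than PBS tumors, with every GB2 tumor above every PBS tumor for each of these 4 genes, against 8.61% of all genes tested. None of them passed edgeR's quasi-likelihood test once p values were adjusted over all genes tested (Benjamini-Hochberg), and of all genes 0% were called. All 4 had an unadjusted p below 0.05 with at least a 2-fold higher level, against 3.74% of all. DESeq2 called 4 of 4, against 1.57% of the genes to which it gave an adjusted p. Ms4a7 is put beside the Ms4a6 genes for description only, so the counts of 4 are no test. Over all 8 genes, 6 were without overlap, 5 passed the unadjusted p and fold, and DESeq2 called 5. In a bulk tumor, more cells of a type and more RNA per cell cannot be told apart, nor can fewer cells of a type and less RNA per cell.

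Ms4a6d (ENSMUSG00000024679, 11563968 to 11582213) is a macrophage gene and had the most even values. It measured 1.49, 2.31 and 2.01 CPM in PBS tumors 1, 2 and 3, and 6.88, 6.31 and 9.22 CPM in GB2 tumors 1, 2 and 3. The lowest GB2 tumor was well above the highest PBS tumor. The mean went from 1.94 ± 0.417 to 7.47 ± 1.54 CPM (SD, n = 3), a fitted 3.85-fold difference. On the log2 scale the difference was 1.95 (standard error 0.30, the smallest among the 8 genes), and edgeR's adjusted p was 0.186. DESeq2 gave an adjusted p of 1.74e-06. With any single tumor left out, the log2 fold change was 1.77 or more.

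Ms4a6c (ENSMUSG00000079419, 11446730 to 11459556) is known from monocytes. It measured 0.406, 1.45 and 0.651 CPM in the PBS tumors and 3.81, 2.57 and 6.56 CPM in the GB2 tumors. The 2 groups did not overlap, although PBS tumor 2 was well above the other PBS tumors. The mean was 0.835 ± 0.545 CPM in PBS and 4.32 ± 2.04 CPM in GB2 tumors (SD, n = 3). Its log2 fold change of 2.37 (standard error 0.57) was the largest of the 8, with an adjusted p of 0.295 by edgeR and 0.0019 by DESeq2. It ran from 1.93 to 3.03 when single tumors were left out, the latter without PBS tumor 2.

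Ms4a6b (ENSMUSG00000024677, 11493876 to 11508620) has been described in T cells as well as in myeloid cells. It measured 1.27, 1.28 and 0.523 CPM in the PBS tumors and 3.32, 2.08 and 6.76 CPM in the GB2 tumors. GB2 tumor 3 was far above the other GB2 tumors, and PBS tumor 3 was the lowest of the 6. The mean was 1.02 ± 0.433 against 4.06 ± 2.43 CPM (SD, n = 3). The log2 fold change was 1.99 (standard error 0.55), with an adjusted p of 0.384 by edgeR and 0.015 by DESeq2, and it was 1.40 without GB2 tumor 3.

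Summed over Ms4a6b, Ms4a6c and Ms4a6d, so that it does not matter which of these 3 copies a read was assigned to, the level was 3.16, 5.04 and 3.18 CPM in PBS tumors and 14.0, 11.0 and 22.6 CPM in GB2 tumors. The sum was 4.18-fold higher in GB2 tumors, and the groups were wide apart.

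Ms4a7 (ENSMUSG00000024672, 11298403 to 11313508), a gene of macrophages, measured 1.81, 0.993 and 1.27 CPM in PBS tumors. In GB2 tumors it measured 3.31, 4.40 and 10.39 CPM. No value of one group reached the other, and GB2 tumor 3 held 2.69 times the mean of GB2 tumors 1 and 2. The mean was 1.36 ± 0.415 in PBS and 6.03 ± 3.81 CPM in GB2 tumors (SD, n = 3). The log2 fold change was 2.15 (standard error 0.50), with an adjusted p of 0.278 by edgeR and 0.00141 by DESeq2. Without GB2 tumor 3 it was 1.51.

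**Figure D1:**
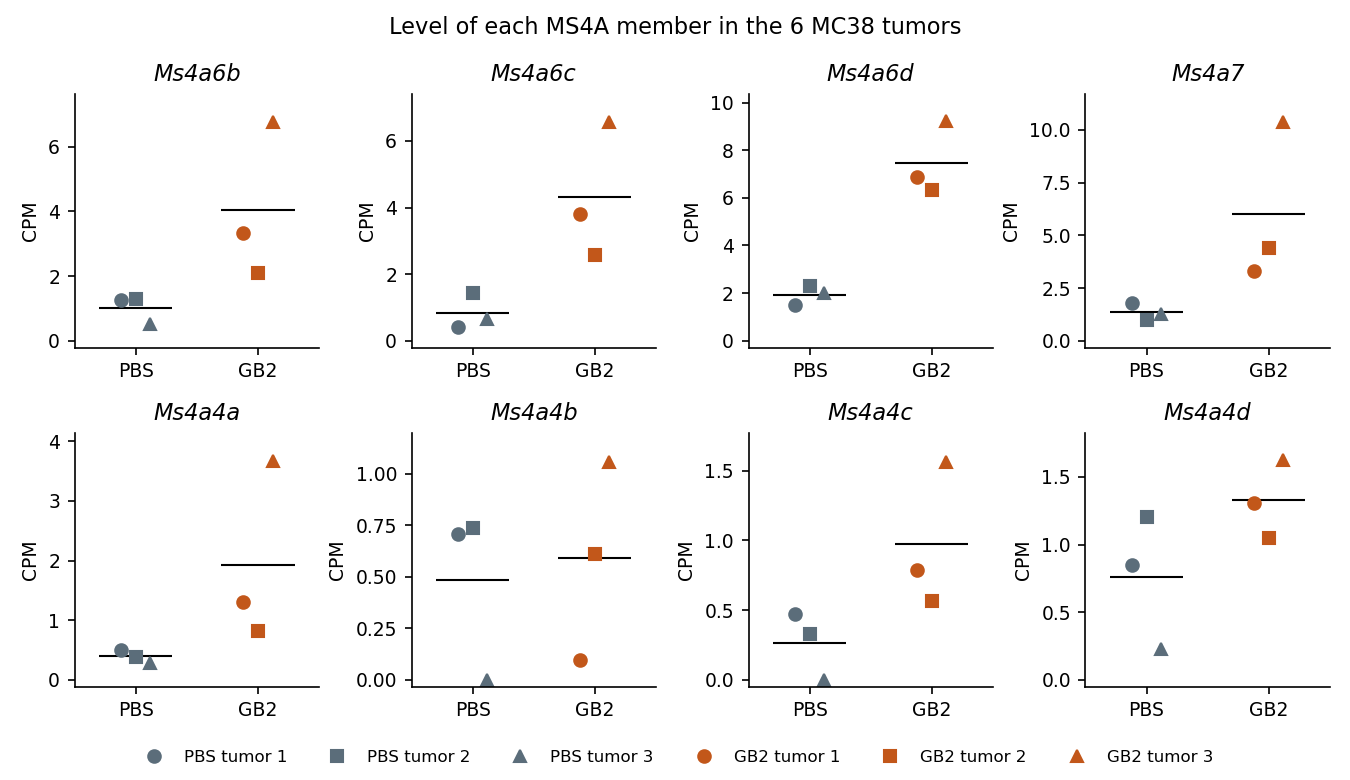
CPM of each of the 8 MS4A genes (vertical axis, a linear scale of its own for each gene) in the 3 PBS tumors (grey) and the 3 GB2 tumors (orange). Symbols give the tumor number and horizontal lines the group means; for 6 genes every orange symbol is above every grey one, while Ms4a4b and Ms4a4d overlap, and GB2 tumor 3 is the highest point in 8 of 8 panels.

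The Ms4a4 genes were less alike. Ms4a4a and Ms4a4c were higher in each GB2 tumor than in any PBS tumor, which held for 8.61% of all genes tested. For Ms4a4b and Ms4a4d the groups overlapped. None of the 4 was called by edgeR, and of all genes 0% were called. Ms4a4a alone had an unadjusted p below 0.05 with at least a 2-fold higher level, against 3.74% of all. It was also the only one of the 4 that DESeq2 called, against 1.57% of the genes to which DESeq2 gave an adjusted p.

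Ms4a4a (ENSMUSG00000101389, 11352887 to 11370154), the partner of dectin-1, measured 0.507, 0.383 and 0.283 CPM in PBS tumors. In GB2 tumors it measured 1.30, 0.818 and 3.67 CPM. The PBS values were close to each other, while GB2 tumor 3 held 3.47 times the mean of the other GB2 tumors, the largest such ratio among the 8 genes. The mean was 0.391 ± 0.112 in PBS and 1.93 ± 1.53 CPM in GB2 tumors (SD, n = 3). The log2 fold change was 2.30 (standard error 0.63), with an adjusted p of 0.374 by edgeR and 0.0207 by DESeq2. Without GB2 tumor 3 it was 1.44, so the size of the difference depended on that tumor. Behind these values stand between 5 and 78 read pairs per tumor.

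Ms4a4c (ENSMUSG00000024675, 11382134 to 11404610) is known from monocytes and is the closest copy of Ms4a4b. It measured 0.474, 0.326 and 0 CPM in PBS tumors and 0.786, 0.565 and 1.57 CPM in GB2 tumors. PBS tumor 3 had 0 counts, which allows up to 3 read pairs, a limit that covers counting error only. The group means were 0.267 ± 0.242 and 0.972 ± 0.525 CPM (SD, n = 3). The log2 fold change of 1.87 had a standard error of 1.10, and the adjusted p was 0.759 by edgeR and 0.646 by DESeq2. It was 1.29 without PBS tumor 3 and 2.57 without PBS tumor 1, the lowest and highest values with 1 tumor left out. Although its groups did not overlap, the difference was less than 2 standard errors in the main edgeR fit and in DESeq2. It was more than that in some of the alternatives described below. These include limma on log2(FPKM + 0.1), at 1.53 (standard error 0.55, adjusted p 0.552), and edgeR on counts divided by 4, at 1.84 (standard error 0.855, adjusted p 0.691).

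Ms4a4d (ENSMUSG00000024678, 11514165 to 11535831) measured 0.846, 1.21 and 0.226 CPM in PBS tumors and 1.31, 1.05 and 1.62 CPM in GB2 tumors. PBS tumor 2 was above GB2 tumor 2, so the groups overlapped. The means of 0.759 ± 0.496 and 1.33 ± 0.289 CPM (SD, n = 3) gave a log2 fold change of 0.80 (standard error 0.59, adjusted p 0.789 by edgeR). PBS tumor 3 was the lowest of the 6, and the log2 fold change was 0.37 to 1.32 when single tumors were left out.

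Ms4a4b (ENSMUSG00000056290, 11420917 to 11444419), known from T cells, had no difference larger than the spread between tumors. It measured 0.710, 0.738 and 0 CPM in PBS tumors and 0.0953, 0.613 and 1.06 CPM in GB2 tumors. The lowest tumors of either group were at 0 and 8 counts, at or below the 3 read pairs that a count of 0 allows. The means were 0.483 ± 0.418 and 0.589 ± 0.482 CPM (SD, n = 3), with a log2 fold change of 0.29 and a standard error of 1.30. The adjusted p was 0.956 by edgeR, and the sign turned to -0.44 without GB2 tumor 3 and to -0.29 without PBS tumor 3.

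Summed over the 3 close copies Ms4a4b, Ms4a4c and Ms4a4d, the level was 2.03, 2.27 and 0.226 CPM in PBS tumors and 2.19, 2.22 and 4.25 CPM in GB2 tumors. The groups overlapped, since PBS tumor 2 was above GB2 tumors 1 and 2, and the 1.91-fold higher mean in GB2 tumors rested on the low PBS tumor 3 and the high GB2 tumor 3. With Ms4a4a added, which is not a close copy, the sum was 2.54, 2.65 and 0.509 CPM in PBS and 3.49, 3.04 and 7.92 CPM in GB2 tumors, 2.53-fold higher. These values did not overlap, which came from Ms4a4a.

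Over the 8 genes, the counts can be set against all genes tested. With the limits of 0.05 on the adjusted p and 2 on the fold change, edgeR called 0 of the 8 genes, where 0% of the 19602 genes were called. With an unadjusted p below 0.05 and the same fold limit, 5 of the 8 were higher in GB2 tumors (Ms4a4a, Ms4a6b, Ms4a6c, Ms4a6d and Ms4a7), against 3.74% of all genes tested. Every GB2 tumor was above every PBS tumor in 6 of the 8, against 8.61% of all. DESeq2 called the same 5 genes at the same 2 limits, against 1.57% of the 21963 genes to which it gave an adjusted p. The fitted log2 fold change was above 0 in 8 of 8 genes, against 48.3% of all, with a median of 1.97 beside a median of -0.02 over all genes tested. In an exact two-sided permutation test of CPM over the 6 tumors, the 6 genes without overlap reached 0.1, the smallest p that 3 against 3 tumors allow. That test gave 0.2 for Ms4a4d and 0.9 for Ms4a4b.

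**Figure D2:**
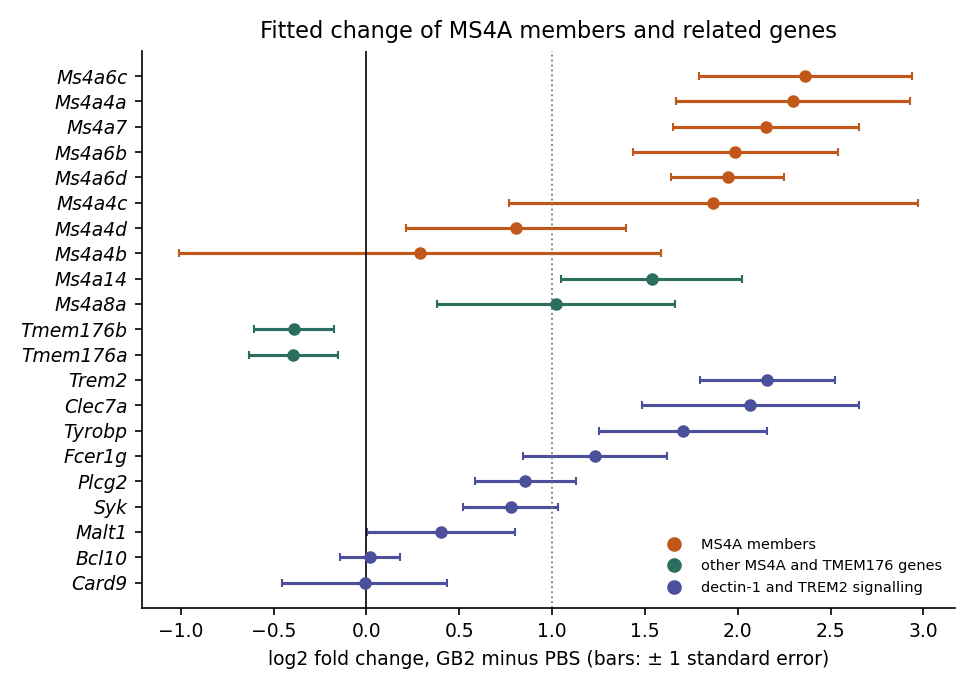
Log2 fold change of GB2 minus PBS tumors (horizontal axis, edgeR fit, bars ± 1 standard error) for the 8 MS4A genes (orange), other MS4A and TMEM176 genes (green) and genes of dectin-1 and TREM2 signalling (purple). The dotted line marks a fold change of 2; Ms4a6c at 2.37 is the highest point, Ms4a4b at 0.29 has the widest bar, and Tmem176a and Tmem176b lie below 0.

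Levels of different genes are compared in FPKM, which divides by transcript length. Ms4a6d had the highest FPKM of the 8 in 6 of 6 tumors, with means of 1.04 ± 0.283 in PBS and 4.22 ± 0.938 in GB2 tumors (SD, n = 3). In PBS tumors it was followed by Ms4a4d (0.457), Ms4a4a (0.422), Ms4a6c (0.380), Ms4a7 (0.278), Ms4a6b (0.206), Ms4a4c (0.133) and Ms4a4b (0.0489), and each neighbouring pair in this order overlapped. In GB2 tumors the order of mean FPKM was Ms4a6d, Ms4a4a (2.28), Ms4a6c (2.07), Ms4a7 (1.33), Ms4a6b (0.887), Ms4a4d (0.857), Ms4a4c (0.543) and Ms4a4b (0.0629). Only the last pair of this order, Ms4a4c and Ms4a4b, did not overlap. In CPM, which does not divide by length, this pair did overlap in GB2 tumors. There Ms4a4b was at 0.0953 to 1.06 and Ms4a4c at 0.565 to 1.57 CPM, and Ms4a4b was the higher in PBS tumors 1 and 2. Which of these close copies a read came from is also uncertain. By mean, Ms4a4d thus stood next to Ms4a6d among PBS tumors and behind 5 genes among GB2 tumors. Within single tumors its rank was 3, 2 and 5 in PBS and 4, 5 and 6 in GB2 tumors. Overlap here compares ranges over tumors, although the genes were measured in the same tumors. Some overlapping neighbours kept their order in each GB2 tumor, as Ms4a6d and Ms4a4a did.

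**Figure D3:**
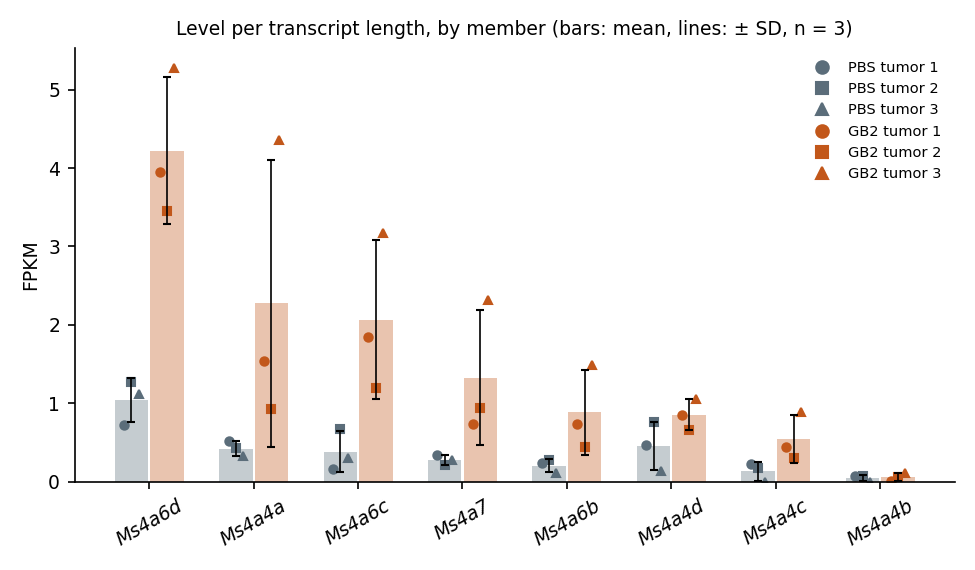
FPKM of the 8 MS4A genes (vertical axis, linear from 0) in PBS tumors (grey bars) and GB2 tumors (orange bars), as mean ± SD of 3 tumors with the single tumors as symbols. Genes are ordered by their level in GB2 tumors; Ms4a6d is the highest in both groups, and the GB2 bars of Ms4a4a, Ms4a6c, Ms4a7 and Ms4a6b have wide errors set by the triangle of GB2 tumor 3.

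GB2 tumor 3 was the highest of the 6 tumors for 8 of the 8 genes, whereas it was the highest for 14.3% of all genes tested. This was not particular to the MS4A genes, since GB2 tumor 3 was also the highest for 10 of 12 macrophage markers, 6 of 7 fibroblast markers and 4 of 5 NK and cytotoxic cell markers. It was the highest for 1 of 7 monocyte markers and 1 of 9 T cell markers. Its CPM over the mean of GB2 tumors 1 and 2 ran from 1.38 for Ms4a4d to 3.47 for Ms4a4a, with a median of 2.41, beside a median of 0.998 over all genes tested. The same median was 1.79 for the macrophage, 1.20 for the monocyte, 1.30 for the fibroblast, 2.35 for the NK and cytotoxic cell and 3.52 for the T cell markers. PBS tumor 3 was the lowest of the 6 in 5 of the 8 genes and in 9 of the 12 macrophage markers, against 18% of all genes tested. It was also the lowest for 5 of 7 fibroblast, 4 of 5 NK and cytotoxic cell, 4 of 7 monocyte and 5 of 9 T cell markers. Without GB2 tumor 3 the median log2 fold change of the 8 genes was 1.42, and 5 of them still had an unadjusted p below 0.05 with at least a 2-fold difference.

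Of the rest of the family, few genes were measurable. Of 15 other MS4A and TMEM176 genes looked for, 7 were in the table and 4 had enough counts to be tested. Ms4a14, which adjoins Ms4a7, measured 0.355, 0.412 and 0.509 CPM in PBS tumors and 0.786, 0.938 and 1.99 CPM in GB2 tumors, without overlap. Its log2 fold change was 1.54 (standard error 0.49, adjusted p 0.513 by edgeR), and it was the only one of the 4 with an unadjusted p under 0.05. Ms4a8a had a log2 fold change of 1.02 (standard error 0.64, adjusted p 0.764), with each PBS tumor under the 3 read pairs that a count of 0 allows. Tmem176b, a relative of the MS4A genes on another chromosome that is known from dendritic cells and macrophages, was far more abundant, at 198, 134 and 126 CPM in PBS and 112, 110 and 128 CPM in GB2 tumors. Its groups overlapped, and its log2 fold change was -0.39 (adjusted p 0.757), as was that of its neighbour Tmem176a at -0.39 (adjusted p 0.761).

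Ms4a1, the CD20 gene, had 4, 5 and 4 counts in PBS tumors and 0 in each GB2 tumor, and Ms4a2 had 7 counts in GB2 tumor 3 and 0 elsewhere. Ms4a15 had 4 counts in PBS tumor 3 alone. These 3 genes were at or under 3 read pairs in every tumor, so no fold is given.

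Dectin-1 signals through its own cytoplasmic tail and TREM2 through the adapter DAP12, and both pathways reach the kinase Syk. In and beside these pathways 9 genes were followed because MS4A4A bears on both receptors. Among them Fcer1g, the gene of the Fc receptor gamma chain, is not part of the routes just named. Of the 9 tested, 8 had a log2 fold change above 0, and 6 had every GB2 tumor above every PBS tumor, against 8.61% of all genes tested. edgeR called 0 of the 9, while 4 had an unadjusted p under 0.05 with at least a 2-fold higher level in GB2 tumors, against 3.74% of all. These 4 were the receptor genes Trem2 and Clec7a and the adapter genes Tyrobp and Fcer1g. DESeq2 called 3 of them, all but Fcer1g, against 1.57% of the genes to which it gave an adjusted p. Trem2 measured 0.913, 1.77 and 0.920 CPM in PBS and 4.75, 5.49 and 5.89 CPM in GB2 tumors, a log2 fold change of 2.16 (standard error 0.36, adjusted p 0.190 by edgeR and 5.91e-06 by DESeq2). This is RNA of whole tumors, whereas the paper reports lower TREM2 protein staining in MC38 tumors given GB2. The paper also reports lower Trem2 RNA in cultured macrophages treated with GB2. The tumor RNA went the opposite way from that RNA result, which is from other cells. Clec7a, which encodes dectin-1, measured 1.12, 2.18 and 0.368 CPM in PBS and 4.82, 5.63 and 4.95 CPM in GB2 tumors, a log2 fold change of 2.07 (standard error 0.58, adjusted p 0.404 by edgeR and 0.0111 by DESeq2).

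Trem2, Tyrobp, Fcer1g and Syk were highest in GB2 tumor 3, as the MS4A genes were. The others were not: Clec7a and Malt1 were highest in GB2 tumor 2, Plcg2 in GB2 tumor 1, and Bcl10 and Card9 in PBS tumor 3. For Tyrobp, the gene of the adapter DAP12 that pairs with TREM2, the log2 fold change was 1.71 (standard error 0.45, adjusted p 0.352 by edgeR and 0.0125 by DESeq2), and Fcer1g, the Fc receptor gamma chain, had 1.23 (standard error 0.39, adjusted p 0.504 by edgeR and 0.081 by DESeq2). Further along the pathway the log2 fold changes were smaller, at 0.86 for Plcg2, 0.78 for the kinase gene Syk, 0.40 for Malt1, 0.02 for Bcl10 and -0.01 for Card9. The last 3 encode the complex that carries the signal to NF-kappa B, and their groups overlapped.

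Markers of macrophages were higher in GB2 tumors as well. Of 12 macrophage markers, 12 were higher in every GB2 tumor than in any PBS tumor, against 8.61% of all genes tested. edgeR called 0 of them, while 11 had an unadjusted p under 0.05 with at least a 2-fold higher level, against 3.74% of all. DESeq2 called 9, against 1.57% of the genes to which it gave an adjusted p. The markers had a median log2 fold change of 1.94, beside the 1.97 of the MS4A genes. Their summed level was 66.5 to 96.5 CPM in PBS and 264 to 372 CPM in GB2 tumors, 3.73-fold higher, and the summed level of the 8 MS4A genes was 3.78-fold higher. The defining genes Adgre1 (F4/80) and Csf1r (the CSF1 receptor) had log2 fold changes of 2.55 and 2.01. Of 7 monocyte markers, 7 had a log2 fold change above 0, edgeR called 0, and 4 had an unadjusted p under 0.05 with at least a 2-fold difference. The sum of these markers was 9.11 to 15.3 CPM in PBS and 27.4 to 49.0 CPM in GB2 tumors. The part of either list in the MS4A values was not tested.

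The MS4A genes can also be given relative to the mean log2 CPM of the 12 macrophage markers of the same tumor, for the 6 genes with counts in every tumor. On that scale the difference of GB2 minus PBS tumors was close to 0 for Ms4a4a (0.09), Ms4a6b (0.00), Ms4a6d (0.05) and Ms4a7 (0.10), and the groups overlapped for each of them. For Ms4a6c it was 0.53, from -3.27, -1.65 and -1.93 in PBS to -1.58, -2.17 and -1.53 in GB2 tumors, and it rested on the low PBS tumor 1. For Ms4a4d it was -0.85, from -2.25, -1.91 and -3.35 in PBS to -3.10, -3.44 and -3.53 in GB2 tumors, with overlap at PBS tumor 3. Ms4a4b and Ms4a4c had 0 counts in PBS tumor 3, where the log value is set by the prior count, so no difference is given for them.

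Markers of other cell types were higher as well, and their part in the MS4A values was not tested either. All 7 fibroblast markers had log2 fold changes above 0, with a summed level of 278 to 513 CPM in PBS and 957 to 1337 CPM in GB2 tumors. All 7 were without overlap, against 8.61% of all genes tested. All 7 also had an unadjusted p under 0.05 with at least a 2-fold higher level, against 3.74% of all. DESeq2 called 7 of them, against 1.57% of the genes to which it gave an adjusted p, and edgeR called 0. Of 6 endothelial markers, 5 had log2 fold changes above 0, and the sum was 52.2 to 69.0 against 109 to 124 CPM. Of the neutrophil markers 6 of 6 tested were higher, at 2.12 to 4.50 against 9.50 to 12.4 CPM, but Ly6g, a defining neutrophil gene, had 0 counts in all 6 tumors. In the endothelial list 5 genes were without overlap and higher, 4 passed the unadjusted p and fold, and DESeq2 called 3. The neutrophil list had the same counts of 5, 4 and 3, and edgeR called 0 in either list. The sums of these 3 lists did not overlap between the groups. Tumor epithelium markers (4 of 4 tested above 0) summed to 2.60 to 6.10 CPM in PBS and 3.69 to 7.74 CPM in GB2 tumors, with overlap.

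Dendritic cell markers (4 of 4 tested above 0) summed to 8.15 to 10.5 CPM in PBS and 13.8 to 16.4 CPM in GB2 tumors, and mast cell markers (4 of 4) to 4.08 to 6.38 and 10.6 to 14.0 CPM. NK and cytotoxic cell markers (4 of 5) summed to 0.424 to 2.70 and 1.55 to 4.52 CPM, and B cell markers (2 of 4) to 0.676 to 1.49 and 1.20 to 1.98 CPM, both with overlap. T cell markers did not shift together. Of 9 tested, 2 had a log2 fold change above 0 and none had groups without overlap, and the summed level was 4.24, 8.88 and 1.43 CPM in PBS and 2.99, 3.23 and 7.94 CPM in GB2 tumors. Ms4a4b, this sum and the sum of the NK and cytotoxic cell markers were all lowest in PBS tumor 3, then GB2 tumor 1, GB2 tumor 2 and PBS tumor 1. Ms4a4b and the NK and cytotoxic cell sum were highest in GB2 tumor 3 and then PBS tumor 2, and in the T cell sum these last tumors were the other way round, so the order was not particular to either list.

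**Figure D4:**
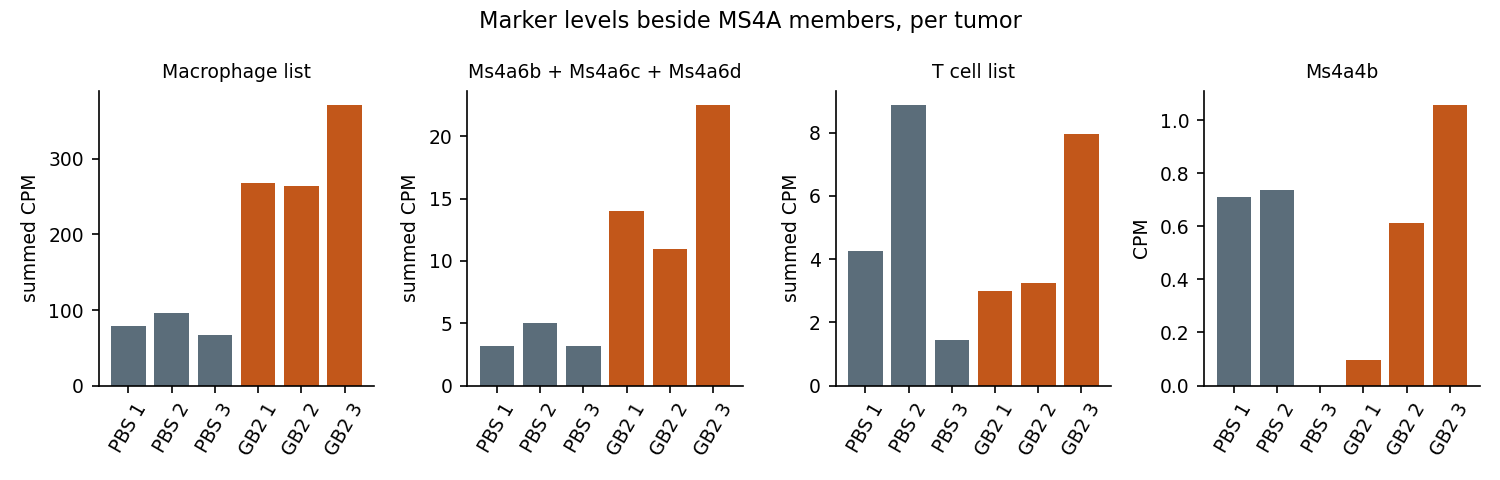
Summed CPM of 12 macrophage markers, of Ms4a6b, Ms4a6c and Ms4a6d, and of 10 T cell markers, and CPM of Ms4a4b (vertical axes, linear from 0, one scale per panel), with 1 bar per tumor, PBS in grey and GB2 in orange. The macrophage and Ms4a6 panels separate the groups, at 264 or more CPM and 11.0 or more CPM in each GB2 tumor, while the T cell and Ms4a4b panels overlap and are lowest in PBS tumor 3.

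The genes whose levels over the 6 tumors were most like the mean standardised log2 CPM of the 8 MS4A genes were sought among 14240 genes with a mean of at least 1 CPM. The 5 with the highest Pearson correlation were Slamf9 (0.995), which encodes a receptor of the SLAM family, Shfl (0.994), an interferon-stimulated antiviral gene, the predicted gene Gm20394 (0.993), Fcgr1 (0.992), a macrophage marker of the list above that encodes the high-affinity IgG receptor CD64, and Thbs1 (0.991), which encodes the matrix protein thrombospondin-1. Slamf9 measured 0.474, 0.554 and 0.184 CPM in PBS and 1.24, 1.42 and 3.48 CPM in GB2 tumors, with the same low PBS tumor 3 and high GB2 tumor 3. These correlations describe 6 points that fall into 2 groups and share libraries, and the highest of many genes are high by selection.

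The other genes of this stretch of chromosome 19 were also looked at. Inside the 283.8 kb, 6 other genes were listed and 3 could be tested, none with an unadjusted p below 0.05 and a 2-fold difference. BE692007, opposite Ms4a6c, had a log2 fold change of 1.63 (standard error 1.17, adjusted p 0.787 by edgeR), and the other 2 had 0.90 (ENSMUSG00000120878) and -0.54 (Gm5511). Within 500 kb on either side, 28 genes whose names do not begin with Ms4a were listed and 16 could be tested. Their median log2 fold change was 0.22 against 1.97 for the 8 MS4A genes. Of the 16, 2 had an unadjusted p below 0.05 and at least a 2-fold higher level, against 3.74% of all genes tested. These were Slc15a3 (log2 fold change 1.32) and the predicted gene Gm6501 (1.39), both without overlap. Since the genes of a region are not replicates, these medians are given without a test.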

How the data were processed

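RNA of 6 MC38 tumors was sequenced, per the labels, from oligo-dT selected, strand-marked, paired-end libraries. The submitters' processing notes name cutadapt 1.9, HISAT2 2.2.1, StringTie 2.1.6, DESeq2, edgeR and mm10, without settings. For each gene the authors deposited estimated counts, which are whole numbers not scaled between tumors, and FPKM values. Values of 4 (7017) outnumber those of 3 (2984) and 5 (2017), hence about 4 counts per read pair. All per-sample columns were used.

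After filterByExpr (minimum count 10) and TMM scaling (factors 0.914 to 1.04), edgeR 4.0.16 in R 4.3.3 compared the groups by its quasi-likelihood test (glmQLFit, glmQLFTest), and p values were adjusted over 19602 genes by Benjamini-Hochberg. Calls used the limits stated in the study's methods, 0.05 on the adjusted p and 2 on the fold change. Adjusted p values are from edgeR unless DESeq2 is named. DESeq2 1.42.0, other scaling, no filter, counts divided by 4, limma 3.58.1 on log2(FPKM + 1) and log2(FPKM + 0.1) with FPKM of at least 0.1 in 3 tumors, a block on tumor number and leaving out each tumor were alternatives. The common dispersion of 0.164 corresponds to a coefficient of variation of 40.5% between tumors. The computations were tested on simulated counts.

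Named genes were the 8 MS4A genes, 2 related gene lists, up to 2 defining genes per marker list, and the 5 genes most like the MS4A profile; genes beside the MS4A genes were chosen after their values were seen. The 8 genes and all lists were chosen with earlier results of these data known. Coding sequences were aligned from GENCODE M21 and promoters from RefSeq. Protein sequences were not used here. No batch is given in the labels, so none was tested.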

Additional observations from a re-analysis of the deposited data

How the results depend on the processing

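The number of MS4A genes past the limits on adjusted p and fold change was 0 in edgeR and moved to 5 with DESeq2 (Ms4a4a, Ms4a6b, Ms4a6c, Ms4a6d and Ms4a7). The cause was not tested. DESeq2 was run on the deposited counts only and not on counts divided by 4, so its calls were not checked on the scale of read pairs. DESeq2 called 344 higher and 36 lower genes of 21963, whereas edgeR with other size factors, no filter or counts divided by 4, and limma on FPKM, called 0 genes. With limma on log2(FPKM + 1), 7 of the 8 genes passed the filter, without Ms4a4b. There the median log2 fold change was 0.81 in place of 1.97, since a pseudocount of 1 is large beside these levels, and 3 genes had an unadjusted p below 0.05 with a 2-fold difference, in place of 5. With a pseudocount of 0.1 the median was 1.77 and the number 6, which included Ms4a4c. Ms4a4b, at 0.29, changed sign to -0.29 without PBS tumor 3 and to -0.44 without GB2 tumor 3, and ranged from -0.44 to 0.80 when single tumors were left out. Of 102 values for single genes, 95 kept direction and side of the threshold, 5 newly passed it, each with DESeq2, and the 2 of Ms4a4b reversed. When single tumors were left out, 0 genes were called in each fit, 5 had an unadjusted p below 0.05 with a 2-fold difference, 7 to 8 were higher, and the median was 1.42 (without GB2 tumor 3) to 2.23 (without GB2 tumor 2). Tumors that share a number did not deviate together: their deviations from the group means correlated at 0.03, 0.15 and -0.25 across genes. With the number as a replicate block, 0 genes were called, 5 had an unadjusted p below 0.05 with a 2-fold difference, 8 were higher and the median was 1.98. Low counts limit Ms4a4b and Ms4a4c, with at most 22.5 and 33.2 read pairs in a tumor.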
